A study of Gallus gallus with 6 samples.

Results

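The lncRNAs described here are those with no Ensembl gene nearby in the tables, 484 of the 1995 lncRNAs measured in chicken leg muscle. They were chosen by position alone. A lncRNA was counted as distant if the gap between its locus and the nearest Ensembl transcript on the same chromosome or scaffold was over 50 kb, or if its scaffold held no Ensembl transcript at all. By this rule 401 distant lncRNAs lay on chromosomes, and 83 lay on 70 scaffolds without an Ensembl row. For these 83 no distance could be given, so they are not known to be far from a gene, and the results are given for both kinds. The remaining lncRNAs were 592 at 5 to 50 kb from an Ensembl row and 919 within 5 kb of one or overlapping it, and each table of 19937 rows also held 17942 Ensembl rows.

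The study followed the lncRNAs and mRNAs of developing skeletal muscle in Xinghua chickens, a slow-growing native breed of Gallus gallus. Leg muscle came from embryos of 11 and of 16 days (E11 and E16) and from chicks 1 day old (D1). Each of these stages had 2 libraries, all labelled as female, and no treatment was given. Libraries were made of total RNA without its ribosomal RNA, and values are FPKM, the fragments mapped to a transcript scaled by its length and by the size of the library. Each of the 3 tables holds 1 value per transcript and stage over both libraries. The labels do not say whether the libraries of a stage came from separate birds. The spread between libraries and the depth behind a value are therefore unknown, no test was made from them, and every difference below is a description of pooled values.

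Long intergenic non-coding RNAs are transcribed from stretches of the genome that hold no protein-coding gene. Such gene-poor stretches often flank genes of developmental regulators and hold their distant enhancers, and lncRNAs are as a class known for low and stage-dependent expression. In embryonic muscle, some lncRNAs of vertebrates are known to act near their site of transcription and others on distant genes or in the cytoplasm, but for most no function is known.

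The 401 distant lncRNAs on chromosomes lay in 170 gene-free intervals, bounded on both sides by an Ensembl row, with a median length of 396 kb. Their distance to the nearest row had a median of 119 kb and reached 606 kb. Of them, 164 lay at 50 to 100 kb, 155 at 100 to 200 kb, 75 at 200 to 500 kb and 7 beyond 500 kb. The distant lncRNAs were unevenly spread: 19 intervals with 5 or more of them held 156. Overlapping loci were merged, which gave 321 loci, 251 on chromosomes and 70 on scaffolds. A single distant transcript was found in 246 loci, and the other 75 loci held 238 transcripts, with up to 12 in a locus. Transcripts of such a locus share reads, and their number is a number of assembled isoforms, not of independent genes.

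On the 3 largest chromosomes similar shares of the lncRNAs were distant, with 75 of 311 on chromosome 1 (24.1%), 53 of 207 on chromosome 2 (25.6%) and 49 of 200 on chromosome 3 (24.5%). The share was higher on chromosome 4, with 67 of 206 (32.5%), and on the smaller chromosomes 9 and 11, with 24 of 72 and 17 of 51 (33.3% each). It was low on chromosome 5, where 14 of 133 were distant (10.5%). The sex chromosome Z held 12 of 69 (17.4%). No distant lncRNA was found on chromosome 14, which held 52 lncRNAs, or on chromosomes 15 to 18, 21 and 23 to 28. The locus of a distant lncRNA on a chromosome spanned a median of 20.0 kb, introns included, against 8.85 kb for lncRNAs at 5 to 50 kb and 19.1 kb for those within 5 kb. On the scaffolds the median locus was only 1.19 kb long.

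Most distant lncRNAs on chromosomes were weakly expressed. In the table of E16 and E11, 162 of the 484 distant lncRNAs (33.5%) were at 1 or more FPKM at E16 and 141 (29.1%) at E11. On chromosomes the share was 24.2% at E16 and 20.7% at E11, below that of lncRNAs at 5 to 50 kb (31.6% and 26.5%) and within 5 kb (41.8% and 35.0%). Among Ensembl rows it was 64.6% at E16 and 66.6% at E11. On scaffolds, in contrast, 78.3% of the distant lncRNAs reached this level at E16 and 69.9% at E11, shares above those of the Ensembl rows. The Ensembl rows are not all protein-coding, and include small RNAs such as gga-mir-6628 and SNORD63, both listed at 0. In all, 2633 Ensembl rows were listed at 0 at E16 and 2370 at E11, and shares over protein-coding rows alone were not taken.

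The median FPKM of the values above 0 had the same order among the classes of lncRNA, but on scaffolds it was below that of the Ensembl rows. It was 0.497 at E16 and 0.582 at E11 for distant lncRNAs on chromosomes, and 2.48 at E16 and 2.89 at E11 for those on scaffolds. LncRNAs at 5 to 50 kb had medians of 0.697 at E16 and 0.644 at E11, those within 5 kb 0.897 and 0.745 at these stages, and Ensembl rows 6.64 and 6.39. Since the isoforms of a locus divide its reads, the FPKM were also summed by locus. By locus, a summed FPKM of 1 was reached by 38.6% of the distant loci on chromosomes at E16 and by 35.1% at E11, against 43.5% and 41.4% of the loci at 5 to 50 kb and 50.8% and 47.6% of those within 5 kb.

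**Figure D1:**
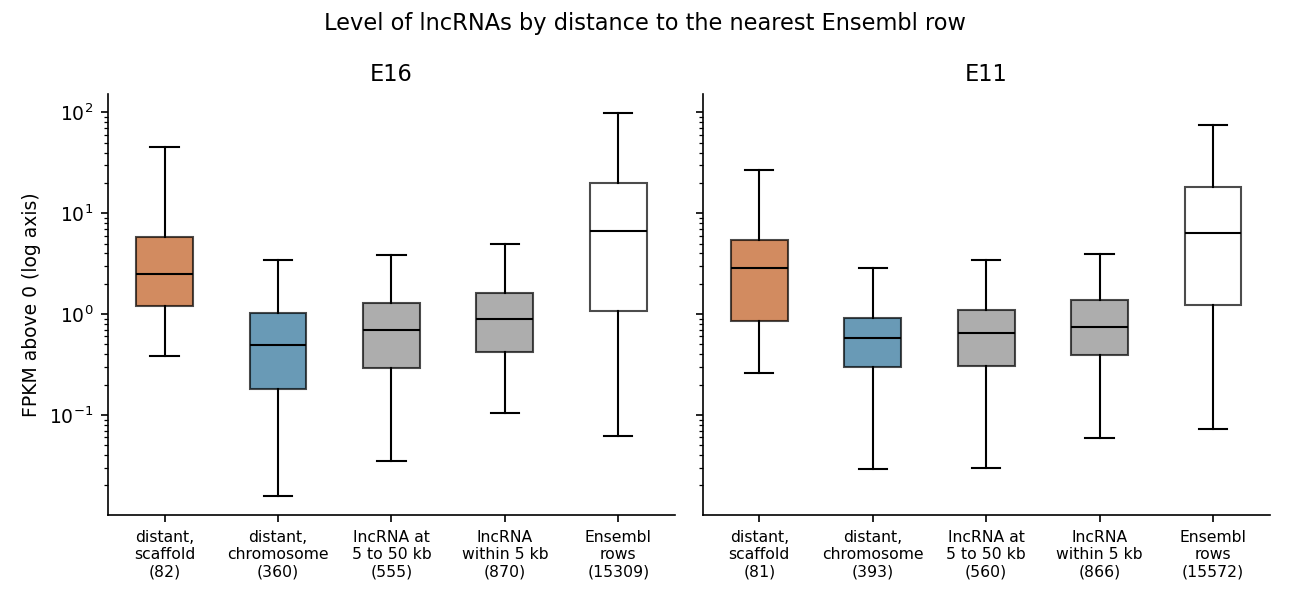
Boxes give the 25th to 75th percentile of the FPKM above 0 (log axis) at E16 (left) and E11 (right), with the median as a line and whiskers from the 5th to the 95th percentile, and the number of transcripts above 0 under each class. Distant lncRNAs on scaffolds (medians of 2.48 at E16 and 2.89 at E11) stand above all other classes of lncRNA, and those on chromosomes (0.497 and 0.582) below them.

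Within the chromosomes the level did not fall steadily with distance. At E16 and E11, an FPKM of 1 or more was reached by 22.0% and 16.5% of the lncRNAs at 50 to 100 kb, by 27.1% and 26.5% at 100 to 200 kb and by 25.3% and 20.0% at 200 to 500 kb. None of the 7 lncRNAs beyond 500 kb reached it at any stage. At D1 the levels of distant lncRNAs on chromosomes were lower. In the table of D1 and E11 their median FPKM above 0 was 0.242 at D1 and 0.484 at E11, while 14.2% at D1 and 15.0% at E11 reached an FPKM of 1. On scaffolds the median was 2.25 at D1 and 2.39 at E11. LncRNAs at 5 to 50 kb were also lower at D1, with medians of 0.364 at D1 and 0.535 at E11. Within 5 kb the medians were 0.603 and 0.617, and among Ensembl rows 5.47 and 5.31. Listed at 0 were 10 of the 484 distant lncRNAs at E11, 42 at E16 and 64 at D1. Of the 1511 other lncRNAs, 85 were listed at 0 at E11 and 86 at E16 in the table of E16 and E11, and 123 at D1 in that of D1 and E11. Of all 19937 rows, 2465, 2761 and 2990 were listed at 0 in these columns. A listed 0 is an entry of the table and gives no upper limit on the level.

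The values of the 3 tables were scaled separately, so levels are compared here within a table only. For the distant lncRNAs, the E11 values in the table of D1 and E11 had a median quotient of 0.83 to those in the table of E16 and E11, with 5% to 95% of them between 0.829 and 0.831. The tables thus differed for a stage by a nearly constant factor.

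The lncRNAs on scaffolds carried most of the summed signal. Summed over all 484 distant lncRNAs, FPKM came to 1341 at E16 and 956 at E11, of which 72.7% at E16 and 63.1% at E11 belonged to the 83 lncRNAs on scaffolds. In the table of D1 and E11 the sum was 3109.7 at D1 and 793 at E11, and the scaffolds held 90.3% of it at D1. An FPKM of 10 or more was reached by 19 distant lncRNAs at E16, 15 of them on scaffolds, and by 16 at E11, again 15 on scaffolds.

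The most abundant distant lncRNA at E16 and D1 was lnc00095210, from a 1.21 kb locus on an unplaced scaffold, and no gene was annotated beside it in the tables. Its FPKM was 259.8 at E16 and 9.29 at E11, a log2 ratio of 4.79. In the table of D1 and E11 it was 1914 at D1 and 7.71 at E11, and in that of D1 and E16 it was 1631 at D1 and 183 at E16. At D1 this lncRNA alone made up 61.5% of the summed FPKM of the distant lncRNAs. Ratios are given throughout as log2 of later over earlier FPKM with 0.1 added to each, which understates the change of weakly expressed transcripts.

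Other abundant scaffold lncRNAs were also higher at the later stages. For lnc00093863 (0.704 kb) the FPKM was 80.5 at E16 and 18.1 at E11, and 132 at D1 and 15.0 at E11. The isoforms lnc00092608 and lnc00092609 shared a locus of 0.868 kb, whose summed FPKM was 146 at E16 and 53.0 at E11, and 337 at D1 and 44.0 at E11. A steep difference at a lower level was seen for lnc00091419 (1.14 kb), with 7.83 at E16 and 0.0278 at E11 (log2 ratio of 5.95), and 12.7 at D1 and 0.0232 at E11 (log2 ratio of 6.70). D1 stood apart for lnc00090217 (0.501 kb), at 19.4 at D1 and 1.00 at E11, and 16.5 at D1 and 0.315 at E16, while in the table of E16 and E11 it was at 0.444 at E16 and 1.21 at E11.

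At E11 the scaffold lncRNA with the highest FPKM was lnc00095103, at 61.2 at E16 and 102 at E11, and at 34.2 at D1 and 84.7 at E11. The 3 isoforms of its locus summed to 77.6 at E16 and 139 at E11, and to 41.2 at D1 and 115 at E11. Lower at the later stage was also lnc00093163, at 35.0 at E16 and 70.6 at E11, from the shortest locus of all (0.291 kb). Also among the 5 highest at E11, lnc00093563 (34.4 at E16 and 30.5 at E11) and lnc00091873 (21.4 at E16 and 27.0 at E11) lay within 2-fold.

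Of the distant lncRNAs, 274 had a mean FPKM of at least 0.5 over E16 and E11 and a value above 0 at both stages, and their ratios were read. At E16, 83 of these (30.3%) were at least 2-fold higher than at E11, while 14.2% of the 14098 rows of all kinds that met these conditions were. At least 2-fold lower at E16 were 60 (21.9%), against 12.1% of all such rows. The median log2 ratio of the 274 was 0.19, and 131 lay within 2-fold. In whole muscle, a lower value from fewer cells of a type and from less RNA per cell cannot be told apart. The other 210 distant lncRNAs were not read: 160 were too low, 40 were listed at 0 at E16, 8 at E11 and 2 at both. Among all other lncRNAs the shares were 26.6% higher and 15.7% lower at E16, and among Ensembl rows 12.9% and 11.6%. Distant lncRNAs of both kinds together thus lay past 2-fold more often than Ensembl rows in both directions. Their share of higher ones was close to that of the nearer lncRNAs. On chromosomes 64 of 201 were higher (31.8%) and 50 lower (24.9%). On scaffolds 19 of 73 were higher (26.0%) and 10 lower (13.7%), so the share of lower ones there was close to that of the Ensembl rows.

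The shares were also read by level, since distant lncRNAs on chromosomes were low. Among rows with a mean FPKM of 0.5 to 1, 54.1% of the distant lncRNAs, 46.5% of those at 5 to 50 kb, 44.6% of those within 5 kb and 40.2% of the Ensembl rows were past 2-fold in either direction between E16 and E11. From 1 to 3 these shares were 51.7%, 42.3%, 38.5% and 36.6% in the same order of classes. At 3 to 10 they were 44.4%, 44.4%, 35.0% and 22.3%, and at 10 or more 55.6% of the distant lncRNAs, 3 of the 6 lncRNAs at 5 to 50 kb, 38.5% of those within 5 kb and 19.9% of the Ensembl rows. For both directions together, the gap between distant lncRNAs and Ensembl rows was thus present at each of the 4 levels, while 18 distant lncRNAs in all stood at 10 or more. The share of lower ones alone was not above that of the Ensembl rows at 0.5 to 1 (25.6% against 25.8%) or at 1 to 3 (18.4% against 24.6%). At 3 to 10 it was 22.2% against 11.7%, and at 10 or more 11.1% against 5.56%. These levels pool chromosomes and scaffolds. Of the 19 distant lncRNAs with an FPKM of 10 or more at E16, 15 lay on scaffolds and are not known to be far from a gene. Between D1 and E11 the shares of distant lncRNAs were 65.5%, 55.2%, 53.3% and 63.2% from the lowest to the highest level, against 55.5%, 47.2%, 35.4% and 39.0% of the Ensembl rows. The lncRNAs at 5 to 50 kb had 64.7%, 52 of 80, 40.0% and 4 of 5, and those within 5 kb 51.1%, 44.9%, 57.9% and 55.6%, so the distant lncRNAs were not above the nearer ones at every level. Lower at D1 alone were 36.9%, 34.5%, 26.7% and 10.5% of the distant lncRNAs, against 38.9%, 33.3%, 20.3% and 11.6% of the Ensembl rows. Over merged loci, 74 of 230 distant loci (32.2%) were at least 2-fold higher and 52 (22.6%) at least 2-fold lower at E16, against 27.5% and 17.8% of the merged loci of all lncRNAs.

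**Figure D2:**
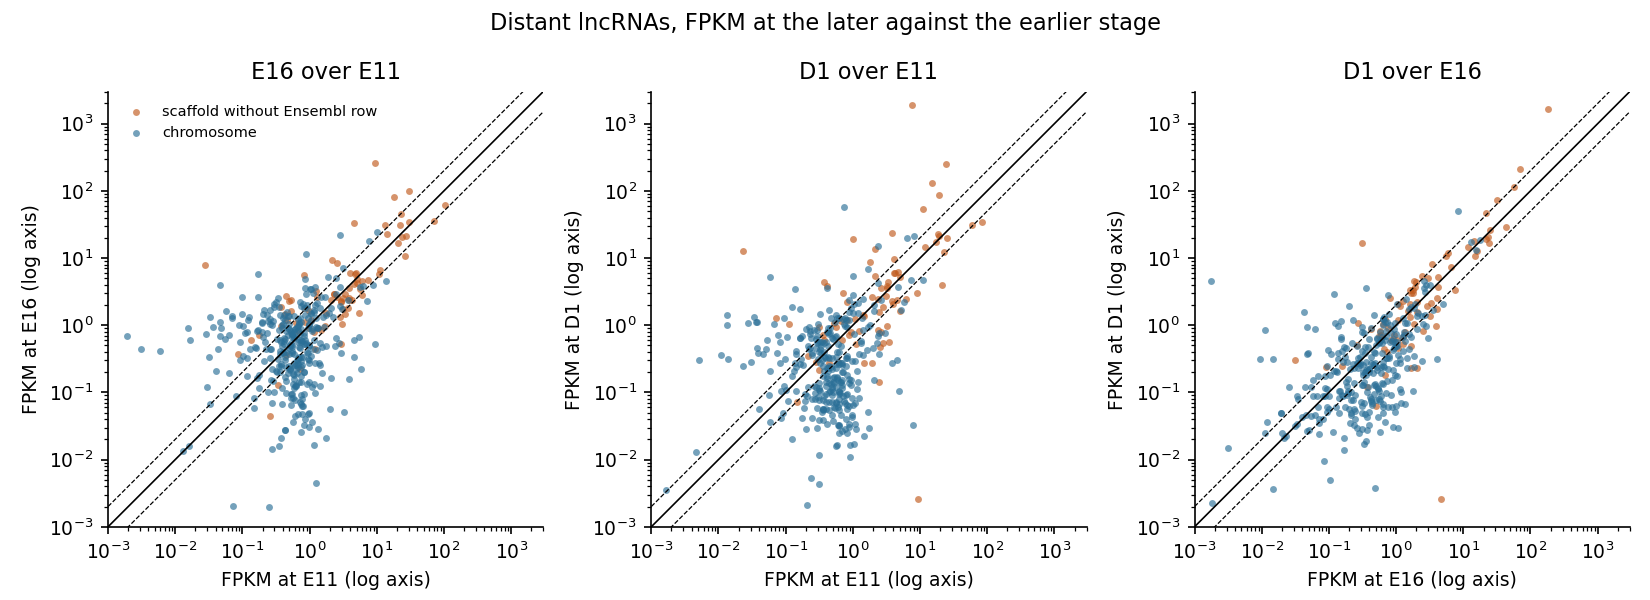
Each point is a distant lncRNA on a scaffold (orange) or a chromosome (blue), with its FPKM at the later stage against the earlier stage (log axes) in the 3 tables. The solid line marks equal values and the dashed lines 2-fold. With both values above 0, the plots draw 414, 388 and 380 lncRNAs, and 20, 24 and 22 with a value under 0.001 at a stage lie outside the axes. The highest point at D1 is lnc00095210, at 1914 in the table of D1 and E11.

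On chromosomes, the largest log2 ratio of E16 over E11 above the limits on level was found on chromosome 3. There, lnc00055950 (chr3:19240015-19245533, galGal4) lay 57.4 kb from GPATCH2 and 308 kb from ESRRG, a nuclear receptor known for its part in oxidative metabolism of muscle. Its FPKM was 3.98 at E16 and 0.0456 at E11, a log2 ratio of 4.81, and the 2 isoforms of its locus summed to 4.66 at E16 and 0.0912 at E11. In the same interval a neighbouring locus of 2 isoforms summed to 1.65 at E16 and 0.0447 at E11. ESRRG itself was at 26.7 at E16 and 12.7 at E11, and at 49.8 at D1 and 10.5 at E11. GPATCH2, the nearest row, differed little, with 14.8 at E16 and 15.7 at E11, and 10.5 at D1 and 13.0 at E11.

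On chromosome 13, lnc00023599 (chr13:2988125-3071495) spanned 83.4 kb between KCNIP1, which encodes a protein that binds potassium channels, and a row named CO6. It was high at E16 alone: its FPKM was 5.69 at E16 and 0.173 at E11, 0.314 at D1 and 3.9995 at E16, and 0.368 at D1 and 0.143 at E11. KCNIP1, 82.7 kb away, had the same order of stages, with 14.5 at E16 and 0.999 at E11, and 1.40 at D1 and 10.2 at E16. CO6, slightly nearer at 82.1 kb, did not share this order, with 1.01 at E16 and 1.65 at E11, and 0.661 at D1 and 0.714 at E16. Also high at E16 alone, lnc00051652 on chromosome 3 stood at 2.60 at E16 and 0.0984 at E11, and at 0.237 at D1 and 1.84 at E16. On chromosome 8, lnc00083277, 107 kb from the lipid phosphatase gene PPAP2B, stood at 4.26 at E16 and was listed at 0 at E11, and in the table of D1 and E16 it was at 0.650 at D1 and 3.03 at E16.

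The study names 4 of the distant lncRNAs, and 1 of these had a gene of muscle fibers as its nearest row. On chromosome 1, lnc00005738 (chr1:114055321-114056100) is a short locus 178 kb from DMD, the gene of dystrophin, which links the cytoskeleton of the muscle fiber to the matrix. Its FPKM was 22.2 at E16 and 2.86 at E11 (log2 ratio of 2.91), 15.3 at D1 and 2.37 at E11, and 13.0 at D1 and 15.6 at E16. DMD had the same order of stages, with 183 at E16 and 26.5 at E11, 139.7 at D1 and 22.0 at E11, and 119 at D1 and 129 at E16.

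LncRNA lnc00073545 (chr5:48926602-48934101) lay 72.9 kb from DLK1, a transmembrane protein of the Notch ligand family that marks immature muscle and fat precursor cells. It stood at 1.17 at E16 and 0.240 at E11, and at 0.890 at D1 and 0.199 at E11. DLK1 was at 12.6 at E16 and 5.25 at E11, and at 6.76 at D1 and 4.36 at E11. A further lncRNA of the interval, lnc00073576 at 164 kb from DLK1, was named after its values were seen, and it was high at another stage: 1.84 at D1 and 0.123 at E11, and 1.57 at D1 and 0.0419 at E16.

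At the other end, lnc00070826 on chromosome 5, 253 kb from KLHL28, was at 0.222 at E16 and 5.83 at E11 (log2 ratio of -4.20), and at 0.106 at D1 and 4.85 at E11. KLHL28 was at 6.12 at E16 and 5.75 at E11. On chromosome 4, lnc00060294 lay 110 kb from FMR1, which encodes an RNA-binding regulator of translation, and stood at 0.0210 at E16 and 1.73 at E11. The 3 isoforms of its locus summed to 0.105 at E16 and 3.56 at E11, while FMR1 was at 50.5 at E16 and 45.8 at E11. Listed at 0 at E16 and D1, lnc00023508 stood at 2.40 at E11 in the table of E16 and E11. It lay 63.5 kb from the protocadherin gene PCDH12, which was at 4.45 at E16 and 2.56 at E11. Of the 162 distant lncRNAs at 1 or more at E16, 3 (1.85%) were listed at 0 at E11, and of the 141 at 1 or more at E11, 8 (5.67%) were listed at 0 at E16. Over all rows these shares were 0.819% and 1.07%, and over the other lncRNAs 5.43% and 5.22%.

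Between D1 and E11, 191 distant lncRNAs met the conditions on level. At D1, 54 of them (28.3%) were at least 2-fold higher than at E11, against 21.2% of the 13492 rows of all kinds, and 61 (31.9%) were at least 2-fold lower, against 20.3%. Among Ensembl rows alone 20.7% were higher and 19.8% lower. Among all other lncRNAs 27.9% were higher and 25.9% lower, and among those at 5 to 50 kb 31.6% were higher and 31.6% lower. The shares of the distant lncRNAs were thus close to those of lncRNAs at 5 to 50 kb. Of the remaining distant lncRNAs, 221 were too low, 62 were listed at 0 at D1, 8 at E11 and 2 at both. Scaffolds and chromosomes differed in the split. On scaffolds 19 of 71 were at least 2-fold higher and 16 lower at D1, and on chromosomes 35 of 120 were higher and 45 lower. By merged locus, 42 of 174 were higher and 58 lower at D1 (24.1% and 33.3%), against 25.8% and 28.7% of the merged loci of all lncRNAs, so that the share of higher loci was not above that of lncRNA loci in general.

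The largest difference on a chromosome between D1 and E11 was that of lnc00057952 (chr3:64940632-64943877), a locus of 3.25 kb that lay 178 kb from LAMA4, a laminin chain of basement membranes, and 679 kb from HDAC2, a histone deacetylase. Its FPKM was 58.2 at D1 and 0.740 at E11 (log2 ratio of 6.12), 49.6 at D1 and 8.27 at E16, and 11.7 at E16 and 0.892 at E11. LAMA4 was highest at E16, with 163 at E16 and 41.7 at E11, and 72.5 at D1 and 34.6 at E11. HDAC2 was at 77.1 at D1 and 158 at E11. The interval between HDAC2 and LAMA4 held 15 distant lncRNAs in 4 loci over 860.5 kb, and neighbouring loci differed in direction. The locus of 4 isoforms on 1 side of lnc00057952 summed to 0.0832 at D1 and 2.07 at E11, and the locus of 9 isoforms on the other side summed to 0.383 at D1 and 1.63 at E11. The remaining locus, of 1 transcript, was listed at 0 at D1, against 0.589 at E11.

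Other lncRNAs were higher at D1 than at both embryonic stages. The locus of 5 isoforms on chromosome 1 that lay 405 kb from SLITRK1, a transmembrane protein of nerve cells, summed to 12.8 at D1 and 0.530 at E11, and to 10.9 at D1 and 1.59 at E16. Of its isoforms, lnc00007111 was at 5.29 at D1 and 0.0593 at E11, and lnc00007108 was at 4.17 at D1 and listed at 0 at E11. SLITRK1 itself was low throughout, at 0.411 at D1 and 0.688 at E11. On chromosome 12 the locus of lnc00022280, 66.8 kb from the transcription factor gene FOXP1, summed to 2.75 at D1 and 0.0141 at E11, whereas FOXP1 was at 18.1 at D1 and 25.6 at E11.

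On chromosome 1, lnc00014645 lay 95.6 kb from the growth factor gene Fgf9. It stood at 3.43 at D1 and 0.137 at E11, and at 2.93 at D1 and 0.117 at E16. Fgf9 was at 1.43 at D1 and 2.46 at E11. On chromosome 2, lnc00041477, 63.2 kb from the chromatin remodeller gene CHD7, was at 3.32 at D1 and listed at 0 at E11. It was present at E16, with 2.83 at D1 and 0.758 at E16, and with 1.07 at E16 in the table of E16 and E11. Of the 110 distant lncRNAs at 1 or more at D1, 3 (2.73%) were listed at 0 at E11, and of the 116 at 1 or more at E11, 7 (6.03%) were listed at 0 at D1. Over all rows these shares were 0.738% and 1.4%, and over the other lncRNAs 8.91% and 5.11%.

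Between D1 and E16, 186 distant lncRNAs met the conditions, and most lay within 2-fold (112). At D1, 28 (15.1%) were at least 2-fold higher than at E16, against 10.9% of the 12865 rows of all kinds, and 46 (24.7%) were at least 2-fold lower, against 11.1%. Of the others, 216 were too low, 40 were listed at 0 at D1, 18 at E16 and 24 at both. Among Ensembl rows alone the shares over all levels were 10.5% higher and 10.2% lower. Among the nearer lncRNAs they were 15.0% higher and 23.2% lower, with more lower than higher ones as well. Among the distant lncRNAs this excess was found below a mean FPKM of 3. At a mean FPKM of 0.5 to 1, 11 (12.5%) were higher and 25 (28.4%) lower at D1, and at 1 to 3 these were 7 (11.3%) and 19 (30.6%), while at 3 to 10 they were 5 and 2 and at 10 or more 5 and 0. Ensembl rows of low level also had more lower than higher ones, with 9.81% higher and 23.8% lower at 0.5 to 1. At 1 to 3 they had 8.56% and 17.3%, at 3 to 10 7.71% and 9.82%, and at 10 or more 13.5% and 5.07%. With a pseudocount of 1 in place of 0.1, 15 of the 186 distant lncRNAs were higher and 14 lower. Shares of the nearer lncRNAs and of the Ensembl rows were not taken at this pseudocount. On chromosomes 17 of 115 were higher and 34 lower at D1, and on scaffolds 11 of 71 were higher and 12 lower. By merged locus, 26 of 168 distant loci were higher and 47 lower, against 13.9% and 24.6% of the merged loci of all lncRNAs.

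A clear example of lower levels at D1 was the interval of 1175 kb on chromosome 4 between NDST3 and NDST4, which encode enzymes that modify heparan sulfate chains. It held 10 distant lncRNAs in 6 loci, which summed to 1.41 at D1 and 6.74 at E16, and to 9.54 at E16 and 4.66 at E11. Each of the 6 loci was lower at D1, with ratios of D1 over E16 between 0.161 and 0.268. On chromosome 2, the locus of lnc00041301 lay between CHST9, a sulfotransferase gene, and CDH2, the gene of N-cadherin. Its 3 isoforms summed to 0.265 at D1 and 2.95 at E16, when CHST9 was at 3.26 at D1 and 6.21 at E16 and CDH2 at 5.98 at D1 and 17.4 at E16.

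Of the 118 distant lncRNAs at 1 or more at E16 in that table, 6 (5.08%) were listed at 0 at D1, and of the 98 at 1 or more at D1, 2 (2.04%) were listed at 0 at E16. Over all rows these shares were 0.778% and 0.508%, and over the other lncRNAs 2.55% and 4.15%. Listed at 0 at D1 was lnc00019955 on chromosome 11, a locus of 135 kb, which stood at 3.75 at E16 in that table, and at 5.29 at E16 and 1.87 at E11 in the table of these stages. Likewise lnc00062656 on chromosome 4 was listed at 0 at D1 and stood at 3.43 at E16, and the other isoform of its locus was at 0 at D1 as well. Listed at 0 at E16 alone was lnc00065745, 193 kb from PPM1K, a mitochondrial phosphatase gene, at 3.03 at D1. The other lncRNA of this kind was lnc00032763, an isoform of a locus near FZD8. At 0.831 at D1, lnc00051051, which lay 79.5 kb from the growth factor gene BMP2, was also listed at 0 at E16.

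For transcripts with sister isoforms, a value near 0 did not always mean a silent locus. On a scaffold, lnc00095107 was at 0.00257 at D1 and 9.28 at E11, a log2 ratio of -6.51, the most negative of all distant lncRNAs. The 4 isoforms of its locus, however, summed to 9.53 at D1 and 19.2 at E11, a linear ratio of 0.497. The scaffold lncRNA lnc00091576 stood at 0.0000974 at D1 and 1.70 at E11, while its locus summed to 0.604 at D1 and 2.07 at E11. Likewise lnc00089328 was listed at 0 at D1 and at 1.02 at E11, while its locus summed to 0.278 at D1 and 2.95 at E11. Of the 75 loci with 2 or more distant transcripts, 20 held only higher and 13 only lower transcripts past 2-fold between E16 and E11, and none held both. Between D1 and E11, 12 held only higher, 15 only lower and 2 both, and between D1 and E16 these numbers were 6, 13 and 1.

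The locus with the most distant lncRNAs, at chr2:12505834-12553676, held 12 transcripts over 47.8 kb and lay 193 kb from FZD8, which encodes a Frizzled receptor for Wnt signals. Together they summed to 4.55 at E16 and 36.0 at E11, a log2 ratio of -2.96. At D1 the sum was 8.65, against 29.8 at E11, and it was 7.38 at D1 and 3.21 at E16. FZD8 was at 5.97 at E16 and 17.4 at E11, and at 5.37 at D1 and 14.4 at E11. The main isoform at E11, lnc00032759, stood at 0.521 at E16 and 9.50 at E11, and at 0.0322 at D1 and 7.88 at E11. Next to it lnc00032760 was at 0.594 at E16 and 4.58 at E11, and lnc00032757 at 0.0518 at E16 and 3.30 at E11. A single isoform, lnc00032763, carried most of the signal at D1: it was at 6.97 at D1 and 1.66 at E11, while at E16 it was listed at 0, against 1.99 at E11. The locus was thus lower at both later stages, while the isoform with the highest value differed between D1 and E11.

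**Figure D3:**
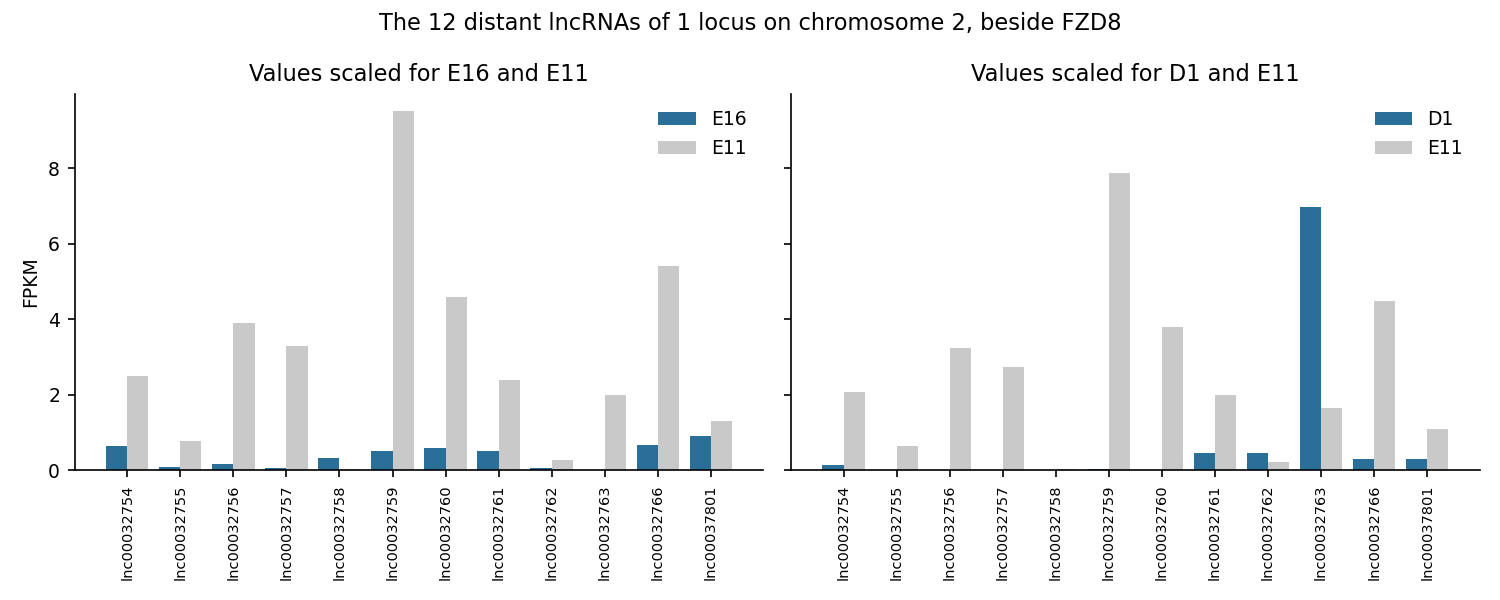
Bars give the FPKM of the 12 lncRNAs of the locus near FZD8 in the table of E16 and E11 (left) and of D1 and E11 (right), which were scaled separately. At E11 most isoforms are above the later stage, led by lnc00032759 (9.50 in the left plot), and at D1 lnc00032763 stands alone at 6.97.

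The next largest loci held 11 transcripts each and were steadier. On chromosome 4 (chr4:51570154-51751096), 175 kb from FAT4, a large cadherin of planar cell polarity, the sum was 13.0 at E16 and 7.20 at E11, and 13.6 at D1 and 5.97 at E11. FAT4 ran the other way, with 37.8 at E16 and 82.8 at E11, and 13.4 at D1 and 68.7 at E11. On chromosome 7 (chr7:33074825-33213213), 158 kb from ZEB2, a zinc finger transcription factor, the sum was 10.8 at E16 and 13.0 at E11, and 5.67 at D1 and 10.8 at E11. ZEB2 was at 107 at E16 and 96.8 at E11, and at 60.6 at D1 and 80.3 at E11. Both the ZEB2 locus and the gene were thus within 2-fold in these pairs of stages.

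Other loci shared these intervals. In the interval of 711 kb between SULT1E1 and FAT4, the other 3 loci stood lower at D1 than at E11, unlike the large one. Of these, the locus with 3 isoforms summed to 1.27 at E16 and 3.71 at E11, and to 0.159 at D1 and 3.08 at E11. Beside the ZEB2 locus, a locus of 3 isoforms summed to 6.04 at E16 and 4.89 at E11, and to 2.65 at D1 and 4.06 at E11.

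Summed by interval, some stretches were highest at E11 and others at E16. The 6 distant lncRNAs of the interval beside ROBO1, an axon guidance receptor gene, summed to 2.96 at E16 and 11.1 at E11, and to 2.81 at D1 and 9.23 at E11. The 6 beside FTO, which encodes an RNA demethylase, summed to 0.623 at E16 and 3.67 at E11, and to 0.192 at D1 and 3.04 at E11. In contrast, the 5 distant lncRNAs of the interval beside ADAMTS5, a matrix protease gene, summed to 13.3 at E16 and 5.38 at E11, and to 2.99 at D1 and 9.40 at E16. The 8 transcripts of 1 locus on chromosome 9, in the interval between C3orf58 and the lysyl hydroxylase gene PLOD2, summed to 5.20 at E16 and 1.83 at E11, and to 2.24 at D1 and 3.66 at E16. Beside NTNG1, a netrin family gene, 5 distant lncRNAs summed to 5.42 at E16 and 3.71 at E11, and to 0.474 at D1 and 3.08 at E11. These intervals were picked after their values were seen.

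The ratios of the distant lncRNAs were set beside those of the nearest Ensembl row. Between E16 and E11, 161 pairs of a distant lncRNA and its nearest row had both partners above the limits on level, with 97 different rows among them. Across these pairs the log2 ratios had a Pearson r of 0.19 and a Spearman rho of 0.15. For lncRNAs at 5 to 50 kb, r was 0.41 and rho 0.47 over 316 pairs, and within 5 kb r was 0.28 and rho 0.22 over 572 pairs. Between D1 and E11 the distant pairs had an r of 0.10 and a rho of 0.06 (92 pairs), against 0.47 and 0.51 at 5 to 50 kb (201 pairs). Between D1 and E16 they had 0.02 and -0.05 (79 pairs), against 0.26 and 0.32 at 5 to 50 kb (199 pairs). Within 5 kb, r was 0.33 and rho 0.24 between D1 and E11 (438 pairs), and 0.40 and 0.25 between D1 and E16 (427 pairs). Pairs share libraries and often a neighbour, so these are descriptions across pairs, and the difference between distance classes was not tested.

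**Figure D4:**
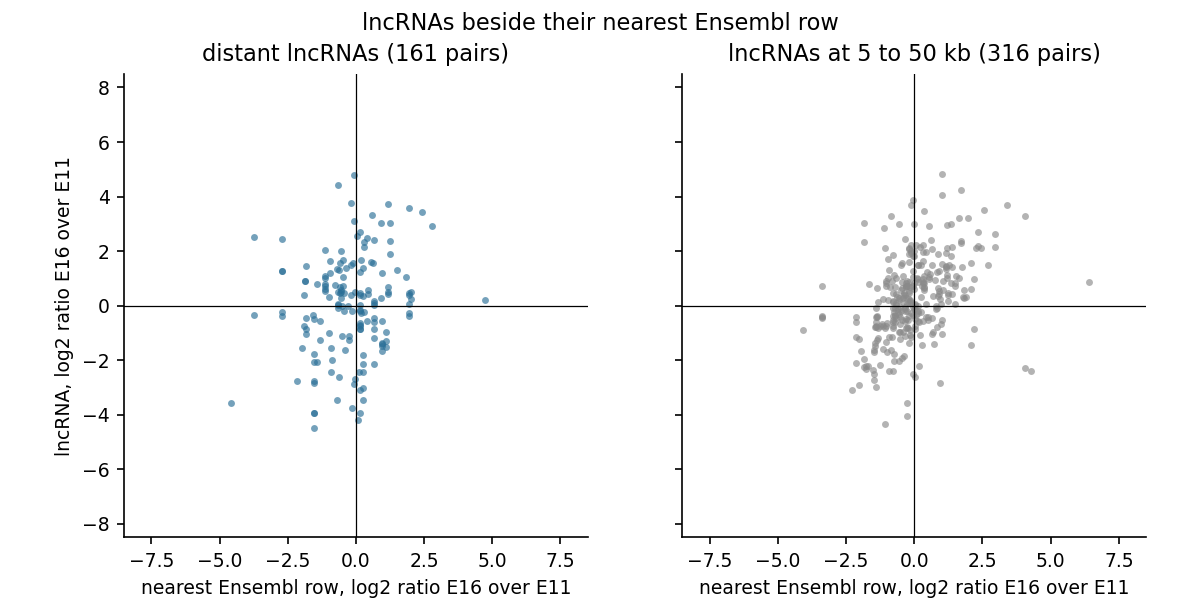
Each point is a lncRNA, with its log2 ratio of E16 over E11 on the vertical axis and that of its nearest Ensembl row on the horizontal axis, for 161 pairs of distant lncRNAs (left) and 316 pairs at 5 to 50 kb (right). The points scatter widely in both plots, with an r of 0.19 for the distant lncRNAs and of 0.41 for those at 5 to 50 kb.

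In the 161 distant pairs between E16 and E11, 46 lncRNAs were at least 2-fold higher at E16. The nearest row was at least 2-fold higher in 9 of these pairs and lower in 8. Of the 43 lncRNAs that were lower at E16, the row was lower in 13 and higher in 2. Most of these 13 were isoforms of the single locus near FZD8, whose own log2 ratio was -1.52. Of the 12833 Ensembl rows above the limits on level, 12.9% were higher and 11.6% lower. Several lncRNAs share a nearest row, so these pairs are not independent.

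A list of 116 developmental transcription factors was looked up among the neighbours, of which 96 had a row in the tables. The list was drawn up from general knowledge, as genes beside gene-poor stretches. The list and the distance rule thus both select such stretches. A higher share beside distant lncRNAs was partly built in, and the shares below are a description only. Such a gene was the nearest row of 33 of the 401 distant lncRNAs on chromosomes (8.23%), of 3.72% of the lncRNAs at 5 to 50 kb and of 2.50% of those within 5 kb. Rows of the list made up 0.608% of all Ensembl rows. On either side, 45 distant lncRNAs (11.2%) had a gene of the list as their next row, against 6.08% at 5 to 50 kb and 6.09% within 5 kb. The 45 were not spread evenly: 14 lay beside ZEB2, 4 each beside EBF1 and Sox11, and 3 each beside FOXP1 and the pair irx2 and IRX1.

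Several of these lncRNAs were, as their neighbour, higher at E11 than at E16. The 3 distant lncRNAs between the homeobox genes irx2 and IRX1 summed to 0.295 at E16 and 1.76 at E11, and were all listed at 0 at D1. IRX1 was at 0.102 at E16 and 4.58 at E11, and irx2 at 0.0392 at E16 and 3.33 at E11. Beside IRX4 (0.0316 at E16 and 3.05 at E11), 2 lncRNAs summed to 0.0210 at E16 and 1.46 at E11. Beside Sox11, which was at 15.5 at E16 and 40.3 at E11, 4 lncRNAs summed to 0.0474 at E16 and 3.26 at E11, and to 0.0464 at D1 and 2.70 at E11. Beside GATA3 (0.253 at E16 and 8.21 at E11), lnc00000230 was listed at 0 at E16 and stood at 1.19 at E11. Beside Six2 (7.63 at E16 and 17.9 at E11), 2 lncRNAs summed to 0.0483 at E16 and 1.04 at E11. Both partners were higher at E16 beside MEF2C, a transcription factor of muscle differentiation at 115 at E16 and 57.3 at E11, where lnc00100335 was at 0.439 at E16 and 0.0429 at E11. The lncRNAs between irx2 and IRX1 and beside GATA3, Six2 and MEF2C did not meet the conditions on level set for ratios. Beside IRX4 and Sox11 only some did. The order of stages in these cases thus rests largely on low values.

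The order was opposite beside TSHZ3 (4.53 at E16 and 8.96 at E11), where lnc00019718 was at 3.41 at E16 and 1.04 at E11. NR2F2 differed little (42.1 at E16 and 47.2 at E11), while lnc00017698 beside it was at 2.24 at E16 and 0.725 at E11. Beside FOXP1 (19.4 at E16 and 30.8 at E11), lnc00022279 was at 0.604 at E16 and 0.0165 at E11. There lnc00022278 had the order of the gene, listed at 0 at E16 and at 0.897 at E11. Neither lnc00022279 nor lnc00022278 met the conditions on level. TSHZ3, NR2F2 and FOXP1 themselves lay within 2-fold, with log2 ratios of -0.97, -0.17 and -0.67. Which order is the more common is not read from these cases. These examples were chosen after their values were seen.

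The make-up of the tissue differed between stages. The muscle fiber markers with a row (8 of 13) summed to 37974 at E16 and 1768 at E11, and to 46246 at D1 and 1467 at E11, so the samples held muscle at each stage. Of the 8, 6 were at least 2-fold higher at D1 than at E11 and 2 at least 2-fold lower. Markers of other tissues were higher at E11: cartilage (8 of 8) summed to 85.6 at E16 and 263 at E11, epidermis (5 of 5) to 3.94 at E16 and 106 at E11, and kidney (4 of 5) to 2.87 at E16 and 121 at E11. In the table of D1 and E11, cartilage was at 52.0 at D1 and 218 at E11, with MATN1 listed at 0 at D1, epidermis at 3.58 at D1 and 87.7 at E11, and kidney at 3.14 at D1 and 100.4 at E11. Fat cell markers (4 of 4), in contrast, summed to 832 at E16 and 8.33 at E11, nerve and Schwann cell markers (5 of 5) to 565 at E16 and 27.4 at E11, and endothelial markers (4 of 4) to 310.2 at E16 and 118 at E11. Those of leukocytes (4 of 4) stood at 28.2 at E16 and 23.4 at E11, though 1 was at least 2-fold lower at E16 and 0 were higher. The sum of the red cell markers (6 of 8) was highest at E16, with 3082 at E16 and 1570.0 at E11, and 999 at D1 and 1303 at E11. Its members differed in direction, with 1 at least 2-fold higher and 2 at least 2-fold lower at E16 than at E11. The part of these cell types in the ratios of the distant lncRNAs was not tested.

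Farthest from any Ensembl row were lnc00060736 and lnc00060742 on chromosome 4, isoforms of a locus 606 kb from PCDH10, a protocadherin gene. Their locus summed to 0.815 at E16 and 0.759 at E11, and to 0.0843 at D1 and 0.630 at E11. PCDH10 was at 0.245 at E16 and 4.55 at E11. In the same interval lnc00060730, 529 kb away, was listed at 0 at E16 and stood at 0.686 at E11. On chromosome 1, lnc00007113 at 575 kb was at 0.134 at E16 and 0.571 at E11, and lnc00007457 at 560 kb was listed at 0 at E16 and at 0.327 at E11. All were below an FPKM of 1.

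Just inside the limit of 50 kb were lnc00016143 and lnc00016147, isoforms of a locus on chromosome 10 that lay just over 50 kb from TMC3. They stood at 0.909 and 0.492 at E16, against 1.29 and 0.972 at E11. Just outside were lnc00058685, 49.3 kb from TSSC1, at 1.37 at E16 and 0.172 at E11, and lnc00006084, 49.3 kb from EGFL6, at 0.173 at E16 and 1.16 at E11.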

How the data were processed

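RNA from leg muscle of 6 libraries (2 per stage) had been depleted of ribosomal RNA. Per the submitters' processing notes, Trim Galore, Bowtie, TopHat and Cufflinks were used with the build galGal4; the kit does not mark strand. For each pair of stages the authors deposited a table of FPKM, in which the libraries of a stage had been combined into 1 value per transcript; each of the 3 tables had its own scaling. The tables also hold the authors' log2 fold changes, test statistics, p-values and q-values, which were not used here. Read counts and values per library were not used here, so depth and spread are unknown and no test was made, as fixed in the design.

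Distances were taken between the deposited loci, with overlapping rows at 0. Genes without a row, and genes placed elsewhere in a later build, would change them. Overlapping loci of distant lncRNAs were merged, and their FPKM summed. Log2 ratios used a pseudocount of 0.1, a mean FPKM of both stages of at least 0.5, a value above 0 at both, and a 2-fold limit. Rows that the authors marked as having too few fragments for their test were kept (128, 168 and 245 distant lncRNAs for E16 vs. E11, D1 vs. E11 and D1 vs. E16). Gene symbols of lists were matched without regard to case. Positions are 1-based on galGal4, and sequences were not used here.

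LncRNAs were named by rule: per comparison and direction the 5 largest changes and the 3 highest of those listed at 0 at 1 stage, the 5 highest FPKM per column, those named by the study, the 3 loci with most transcripts, the 2 nearest and 5 farthest, the 2 just under the distance limit, and flanking rows. Intervals and the loci beside named ones, as between NDST3 and NDST4, were chosen after their values were seen, as were the examples given from the list of transcription factors. The distant lncRNAs, the lists and the rule were chosen with earlier results of these data known. Alternatives were the distance limit, scaffolds left out, merged loci, the pseudocount, the filter and the fold. Python 3.11.15, numpy 2.4.6, pandas 2.3.3 and matplotlib 3.10.9 were used, and the scripts were tested on simulated data.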

Additional observations from a re-analysis of the deposited data

How the results depend on the processing

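No paired analysis was possible because the tables carry 1 pooled value per stage, and for the same reason no library could be left out in turn. Of 126 alternative values for 15 results, 78 stayed near the reported value and 48 moved. Near means within 1.5 times the reported count, or within the 95% interval of the reported share or median. That interval takes each lncRNA transcript as independent, although isoforms of a locus share reads. It is only a yardstick for the settings and measures no spread between birds or libraries. No value per library and no depth was used, which limits the reading of low transcripts. For the counts under a changed pseudocount, filter, fold or distance limit, no share over all rows was taken. A changed filter or distance limit also changes the number of lncRNAs that are read. A moved count is therefore not read as a changed share.

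With a pseudocount of 1, 44 distant lncRNAs were higher and 26 lower at E16 than at E11 (83 and 60 as reported), 34 were lower at D1 than at E11 (61 as reported), and 15 were higher and 14 lower at D1 than at E16 (28 and 46 as reported). A mean FPKM of at least 1 left 45 higher and 26 lower at E16 than at E11, 30 and 30 at D1 against E11, and 17 and 21 at D1 against E16. With no filter on low values, 120 were lower at E16 than at E11, 82 were higher and 164 lower at D1 than at E11, 45 were higher and 116 lower at D1 than at E16, and the median log2 ratio of D1 over E11 was -0.52, against 0.18 as reported. It was also below 0 over merged loci, at -0.05. The other medians changed sign as well: that of E16 over E11 was -0.10 with no filter (0.19 as reported), and that of D1 over E16 was 0.13 at a mean FPKM of at least 1 (-0.13 as reported). No direction is read from these medians.

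A fold of 4 left 38 higher and 29 lower at E16 than at E11, 34 and 34 at D1 against E11, and 13 and 19 at D1 against E16, where a fold of 1.5 gave 52 higher. With the scaffold lncRNAs kept, a distance over 25 kb gave 82 higher and 93 lower at D1 than at E11. A distance over 100 kb, also with the scaffold lncRNAs kept, gave 55 higher at E16 than at E11 and 30 lower at D1 than at E16. Without the scaffolds, 35 were higher at D1 than at E11 and 17 at D1 than at E16.

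For distances over 100 kb, the percent at an FPKM of 1 or more was 39.4% at E16 and 35.6% at E11. It was 27.5% at D1 and 30.6% at E11, and 25.3% at D1 and 30.0% at E16, in the tables of these pairs. The scaffold lncRNAs, which have no distance, were kept in these shares. On chromosomes alone, 27.1% at E16 and 26.5% at E11 reached this level at 100 to 200 kb. At 200 to 500 kb these shares were 25.3% and 20.0%. For distances over 50 kb without scaffolds, the percent was 24.2% at E16 and 20.7% at E11. It was 14.2% at D1 and 15.0% at E11, and 11.97% at D1 and 14.7% at E16. Over merged loci it was 47.4% at E16 and 42.4% at E11, 30.8% at D1 and 36.4% at E11, and 29.3% at D1 and 36.1% at E16. These settings admit different numbers of lncRNAs or loci, and the causes of the shifts were not tested.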
